A study of Caenorhabditis elegans with 24 samples.

Results

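The lipases and fat mobilization genes of *Caenorhabditis elegans* described here are the 28 genes whose symbol starts with *lips*, *lipl* or *fil* or is *atgl-1* or *hosl-1*, among 22066 genes tested at 6 h and 23057 genes tested at 20 h. They were chosen by name. A probe on the array was matched for 27 of them (none for *lipl-6*), and 25 passed the filter on dim probes at both times. The probe of *lips-8* was not above background on any array, and that of *lipl-8* on at most 1 of the 3 arrays of a comparison, so neither was tested. Matched probes on the array named 19858 genes. Probes that matched no gene were tested under their array names. These names count as genes in the totals above, in the shares of all genes and in the ranks below.

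Total RNA came from whole worms, either mutants with the loss-of-function allele *pqm-1(ok485)* or wild type (N2), that had spent 6 h or 20 h in 5 mM CoCl2, a chemical mimic of hypoxia, from early in their first day as adults, or had been left without it. The worms for RNA were synchronized with hypochlorite, and the mutants develop more slowly, per the methods of the study. On each of 24 two-color arrays, 2 of these RNAs were set against each other. There were 4 comparisons, each on 3 arrays at each time. The first pair gave the CoCl2 response (treated over untreated worms) of the mutant and of the wild type, and the second pair gave the strain ratio (mutant over wild type) among worms in CoCl2 and among untreated worms. Values are log2 ratios of the first RNA over the second, given as the mean ± SE of the limma fit or array by array in the order of replicates 1 to 3, and a gene passed where its p, adjusted by Benjamini-Hochberg across every gene of the fit, was below 0.01. Signals were corrected for background with an offset of 50, and ratios of dim genes depend on that offset. In the alternative with no offset, 14 of the 58 passes described below had a fold over 1.5 times larger, and with the ratios of the scanner's own software 25 of 58, and no fold was smaller by that factor. Source names of the arrays contradict the strain and treatment fields, which were followed, on 11 of 24. With the dyes that the source names give, none of the genes described here passed in any comparison, and 2 of 3 replicate pairs of each comparison correlated below 0. CoCl2 stands in for low oxygen here, and oxygen itself was not varied in these worms.

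In worms, most fat is held as triglyceride in lipid droplets of the intestine, and lipases release fatty acids from it by separate routes. ATGL-1 (adipose triglyceride lipase) and HOSL-1 (hormone-sensitive lipase) act on droplets in the cytosol, while the LIPL proteins are related to lysosomal acid lipase, which breaks down fat delivered to lysosomes. In fasting worms the transcription factor HLH-30 (the worm TFEB) activates lysosomal lipase genes and MXL-3 represses them, and *fil-1* and *fil-2* are lipase genes that fasting induces through the IRE-1 branch of the unfolded protein response. The LIPS proteins are lipase-related and mostly known from sequence alone, and *lips-14* and *lips-16* are annotated as pseudogenes in the RefSeq table.

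Genes of other tissues moved in the same arrays. Between 68.5% and 92% of probes on an array stood above background, and replicates of a comparison correlated with r of 0.674 to 0.961 across genes. The *pqm-1* probe was lower in the untreated mutant (-2.27 ± 0.118 at 6 h and -1.46 ± 0.163 at 20 h), but stood at -0.04 ± 0.118 (6 h) and 0.19 ± 0.163 (20 h) between the strains with CoCl2. With CoCl2 it rose by 2.69 in *pqm-1(ok485)* and by 0.77 in wild type at 6 h, and by 3.16 and 1.98 at 20 h. Its place relative to the deletion was not determined, so with CoCl2 it does not check the strain labels. All 27 major sperm protein genes tested passed as higher in *pqm-1(ok485)* than in wild type at 6 h, with CoCl2 (1.71 to 3.48) and without (1.5 to 3.65). At 20 h, 26 of 26 rose with CoCl2 in *pqm-1(ok485)* (2.26 to 2.92) and 22 of 26 in wild type. Markers of the intestine, the main fat store, were higher in the mutant for 5 of 7 genes with CoCl2 at 6 h (-0.03 to 0.58, median 0.41) and for 5 of 7 at 20 h (0.01 to 1.57, median 0.66). With CoCl2 at 20 h, 4 of these 7 rose and 2 fell in *pqm-1(ok485)* (-0.86 to 1.28). In wild type 2 rose and 3 fell (-1.95 to 1.16). Hypodermis markers were higher for 6 of 7 genes between the strains with CoCl2 at 20 h (-0.08 to 3.39, median 1.90), and 6 of 7 rose with CoCl2 in *pqm-1(ok485)* at 20 h (0.10 to 2.76, median 1.63), where 10 of 13 oocyte and eggshell genes fell (-0.75 to 0.05, median -0.51). Of these 13, 7 were lower in the mutant with CoCl2 at 6 h (-0.66 to -0.07) and 9 at 20 h (-0.60 to -0.24), while all 5 body wall muscle genes were higher at each time (0.62 to 1.06 and 0.44 to 0.87). Of 7 neuron genes, 6 rose with CoCl2 at 20 h in *pqm-1(ok485)* (0.17 to 1.24, median 0.45) and 3 in wild type. Of all genes, 14.2% were higher and 5.43% lower in the mutant with CoCl2 at 6 h, and 23.7% and 13.6% at 20 h. Untreated at 6 h, 10.5% were higher. With CoCl2 at 20 h, 22.8% rose and 12.4% fell in *pqm-1(ok485)*, and 8.98% and 6.93% in wild type. In whole worms, fewer cells of a type and less RNA per cell cannot be told apart, and the part of these tissue markers in the values below was not tested.

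Lipase genes moved in both directions with CoCl2, and the genes that fell in both strains at both times were *lipl-5* and *lips-14*. With CoCl2 at 6 h, 4 of 25 genes passed in *pqm-1(ok485)* (2 up and 2 down), against 10.9% of all genes (6.03% up and 4.83% down), and 4 of 25 in wild type, all down, against 4.25% of all genes (2.57% up and 1.68% down). At 20 h, 14 of 25 passed in *pqm-1(ok485)* (7 up and 7 down), against 35.2% of all genes (22.8% up and 12.4% down), and 8 of 25 in wild type (2 up and 6 down), against 15.9% of all genes (8.98% up and 6.93% down). The median over the 25 genes at 20 h was 0.09 in *pqm-1(ok485)* and -0.07 in wild type, where the median over all genes was -0.009 in each. With arrays centered on their median instead of loess, there were 6 up and 2 down in *pqm-1(ok485)* and 0 up and 3 down in wild type at 20 h, and at 6 h 1 up and 2 down in *pqm-1(ok485)*. At 6 h in *pqm-1(ok485)* the other signals moved the split too, to 0 up and 2 down with no offset and to 2 up and 6 down with the scanner's ratios.

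Between the strains, lipase genes that differed with CoCl2 at 20 h were mostly higher in the mutant. Of 25 genes, 12 passed there, 10 higher and 2 lower in *pqm-1(ok485)*, against 37.3% of all genes (23.7% higher and 13.6% lower). Under the dyes of the source names, all 12 of these and all 9 of those at 6 h turned their sign. At 6 h with CoCl2, 9 passed, 5 higher and 4 lower, against 19.6% of all genes (14.2% higher and 5.43% lower). Without CoCl2 there were 4 at 6 h (1 higher and 3 lower), against 13.8% of all genes (10.5% higher and 3.22% lower), and 3 at 20 h (1 higher and 2 lower), against 4.33% of all genes (3.07% higher and 1.26% lower). The split at 6 h with CoCl2 was 3 higher and 1 lower after centering on the median and 5 higher and 6 lower with the scanner's ratios, and at 20 h with CoCl2 7 higher and 3 lower with the scanner's ratios. Without CoCl2, normexp with no offset gave 2 higher and 2 lower at 6 h and 2 higher and 1 lower at 20 h, centering on the median gave 0 higher and 1 lower at 6 h and none at 20 h, and the scanner's ratios gave 0 higher and 4 lower at 20 h. Of the 58 passes over the 8 comparisons, spread over 19 genes, 34 held without any 1 array, and for the others the value without the array that decides it is given below. *lips-1*, *lips-2*, *lips-3*, *lips-10*, *lips-15* and *lips-16* passed in none.

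**Figure D1:**
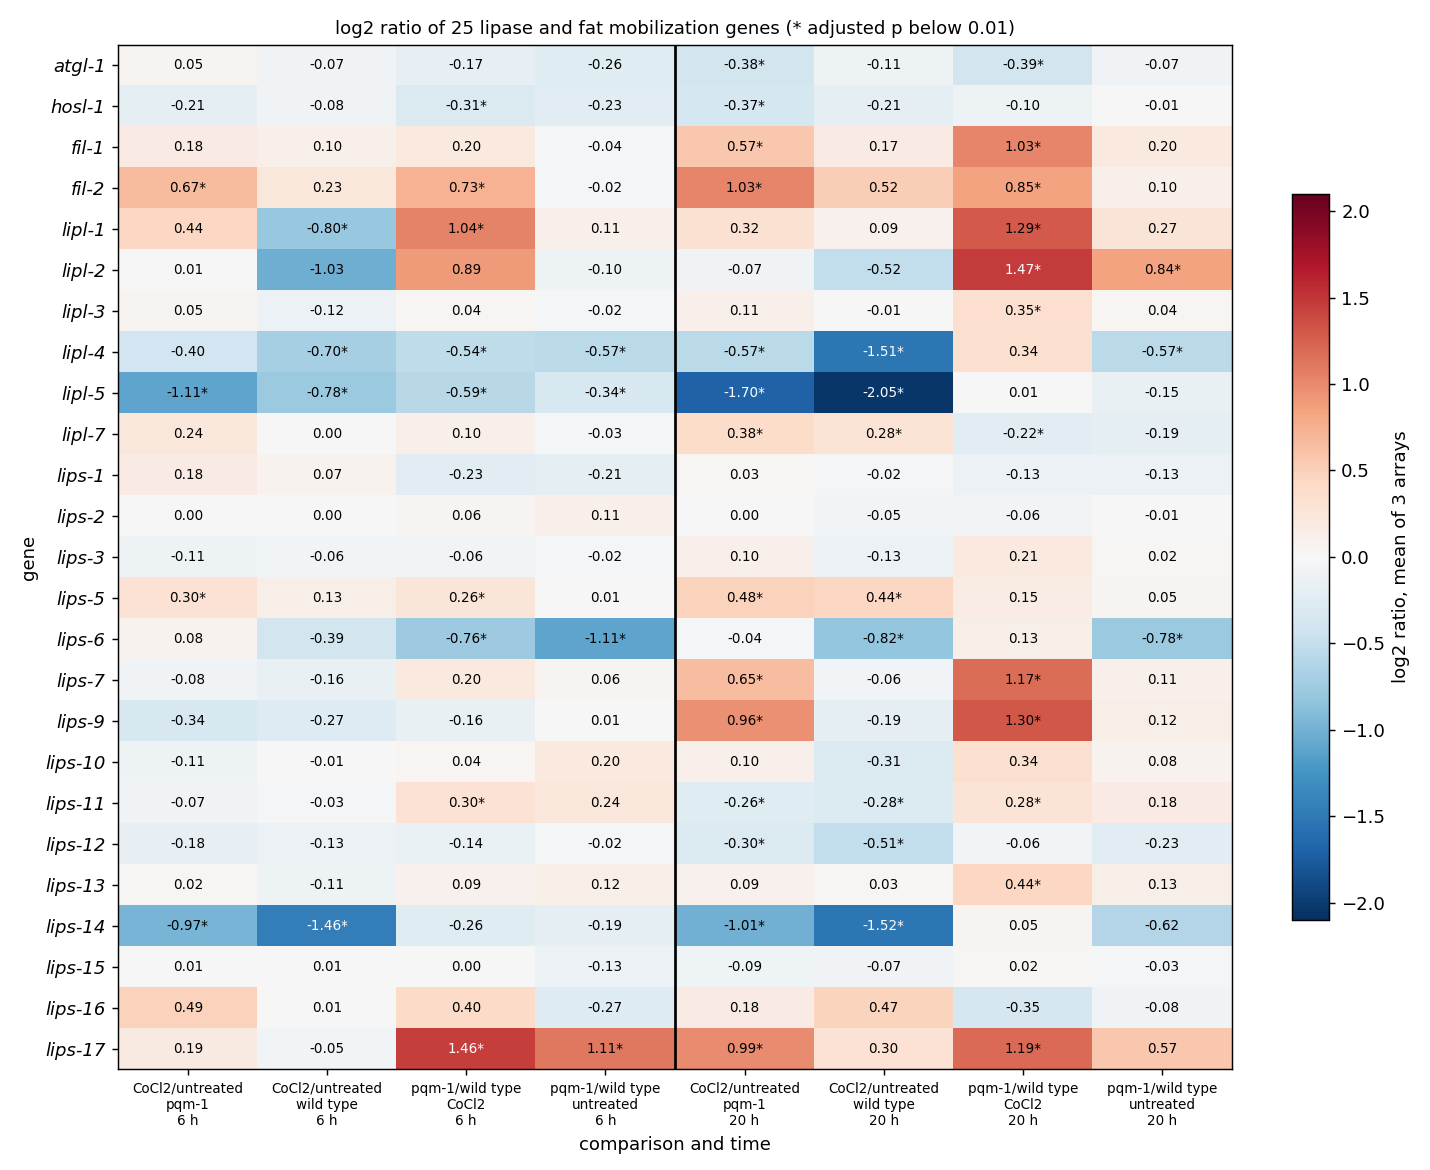
Mean log2 ratio (n = 3 arrays) of the 25 tested genes, 1 per row, in the 8 comparisons, 1 per column, with 6 h left and 20 h right of the line; red is higher and blue lower in the first-named RNA, and an asterisk marks an adjusted p below 0.01. The darkest blue cells are *lipl-5* with CoCl2 at 20 h (-1.70 in *pqm-1(ok485)* and -2.05 in wild type), and the strain comparison with CoCl2 at 20 h holds most of the red ones.

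Among the lysosomal lipase genes, *lipl-5* fell with CoCl2 in both strains at both times. After 6 h, its arrays stood at -1.08, -1.22 and -1.04 in *pqm-1(ok485)* and at -0.83, -0.76 and -0.76 in wild type. After 20 h, they stood at -2.03, -1.05 and -2.01 in *pqm-1(ok485)* and at -2.02, -1.87 and -2.26 in wild type. Every array was thus below 0, and at 20 h replicate 2 of the mutant was less low than the other 5 arrays. The means were -1.11 ± 0.062 (adjusted p = 1.12e-07) in *pqm-1(ok485)* and -0.78 ± 0.062 (adjusted p = 4.66e-06) in wild type at 6 h. At 20 h they were -1.70 ± 0.15 (3.24-fold lower, adjusted p = 3.52e-06) in *pqm-1(ok485)* and -2.05 ± 0.15 (4.14-fold lower, adjusted p = 1.39e-06) in wild type. Counted from the lowest ratio of the 23057 genes at 20 h, *lipl-5* had rank 86 in *pqm-1(ok485)* and rank 66 in wild type. Between 6 h and 20 h the wild-type ratio fell further by 1.27 ± 0.17 (adjusted p = 3.75e-05). Between the strains, *lipl-5* was lower in *pqm-1(ok485)* at 6 h with CoCl2 (-0.59 ± 0.062) and without it (-0.34 ± 0.062; lost without replicate 1, at -0.32, or replicate 2, at -0.31), while at 20 h with CoCl2 the difference was 0.01 (95% interval -0.33 to 0.34). After centering on the median, the fall in wild type at 6 h (-0.68) and both strain ratios at 6 h (-0.60 and -0.31) no longer passed.

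*lipl-4*, whose lipase acts upstream of the lysosomal lipid chaperone LBP-8 in a pathway that lengthens life when *lipl-4* is overexpressed, fell less with CoCl2 in the mutant at 20 h. Its arrays at 20 h stood at -0.78, -0.67 and -0.26 in *pqm-1(ok485)* and at -1.59, -1.44 and -1.49 in wild type, so the strains did not overlap. At 6 h they stood at -0.39, -0.64 and -0.18 in *pqm-1(ok485)* and at -0.80, -0.83 and -0.48 in wild type, with overlap. The means at 20 h were -0.57 ± 0.11 (adjusted p = 0.00113) in *pqm-1(ok485)* and -1.51 ± 0.11 (2.84-fold lower, adjusted p = 1.11e-06) in wild type, and at 6 h -0.40 ± 0.13 (adjusted p = 0.0458) and -0.70 ± 0.13 (adjusted p = 0.00377). The strain difference in the response at 20 h, 0.94 ± 0.16 (adjusted p = 0.00202), passed. In these responses its mean log2 signal was 6.67 with CoCl2 and 8.18 without it in wild type, and 6.53 and 7.1 in *pqm-1(ok485)*. In wild type with CoCl2 it stood above background on 1 of 3 arrays. The part of this low signal in the strain difference was not tested. Without CoCl2, *lipl-4* was lower in *pqm-1(ok485)* than in wild type at 6 h (-0.75, -0.77 and -0.20) and at 20 h (-0.73, -0.71 and -0.28), with a mean of -0.57 at each time (adjusted p = 0.00587 and 0.00663). With CoCl2 the strain ratio was -0.31, -0.53 and -0.77 at 6 h (mean -0.54 ± 0.13) and 0.52, 0.15 and 0.35 at 20 h (mean 0.34 ± 0.11, adjusted p = 0.0234), so its arrays changed sign between the times. Of these, the fall in wild type at 20 h held without any 1 array. The fall in *pqm-1(ok485)* at 20 h was lost without replicate 1 (-0.46) or 2 (-0.52), that in wild type at 6 h without replicate 1 (-0.655) or 2 (-0.64), the untreated strain ratios without replicate 1 or 2 (-0.509 to -0.476), the ratio with CoCl2 at 6 h without replicate 2 (-0.54) or 3 (-0.42), and the strain difference without wild-type replicate 1 (0.90). The fall in wild type at 20 h was -3.07 with no offset and -3.99 with the scanner's ratios. After centering on the median, it alone of these passed, and the strain difference was 1.05.

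*lipl-1* and *lipl-2*, which belong to the lysosomal lipase genes that fasting induces, were higher in the mutant than in wild type when both had CoCl2. For *lipl-1* the arrays stood at 1.01, 1.26 and 0.84 at 6 h and at 1.43, 0.96 and 1.49 at 20 h. Without CoCl2 they stood at -0.01, 0.23 and 0.10 at 6 h and at 0.32, 0.42 and 0.07 at 20 h, below every array with CoCl2. The means with CoCl2 were 1.04 ± 0.14 (2.06-fold, adjusted p = 0.000153) and 1.29 ± 0.1 (2.45-fold, adjusted p = 2.97e-06), and with the scanner's ratios 3.12 and 2.26. Wild type was above background on 1 of 3 of these arrays at 6 h, so the ratio at 6 h rests on a dim signal. The CoCl2 responses of the strains lay on opposite sides of 0 at 6 h, where *lipl-1* stood at 0.48, 0.63 and 0.20 in *pqm-1(ok485)* (mean 0.44, adjusted p = 0.0577) and at -1.34, -0.42 and -0.64 in wild type (mean -0.80 ± 0.14, adjusted p = 0.004). That fall in wild type was lost without replicate 1 (-0.53) or replicate 3 (-0.88), with the scanner's ratios (-1.48) and after median centering (-0.78). At 20 h *lipl-1* stood at 0.23, 0.55 and 0.17 in *pqm-1(ok485)* and at 0.14, 0.05 and 0.09 in wild type. At that time its probe was not above background on any wild-type array with CoCl2 of that comparison, or in untreated wild type set against the mutant, so the wild-type level had only a bound there. Around the loop of 4 comparisons at 20 h, the other 3 summed to 0.49 for the strain ratio with CoCl2, where the arrays that measured it gave 1.29, the widest such gap among the 25 genes at that time (0.8, median gap 0.1).

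For *lipl-2*, the strain ratio with CoCl2 stood at 1.26, 1.02 and 0.38 at 6 h and at 1.84, 1.35 and 1.22 at 20 h, and without CoCl2 at -0.77, 0.03 and 0.44 at 6 h and at 0.86, 0.83 and 0.83 at 20 h. Its mean with CoCl2 was 0.89 ± 0.25 at 6 h (adjusted p = 0.0179) and 1.47 ± 0.16 at 20 h (2.77-fold, adjusted p = 1.41e-05), and without CoCl2 0.84 ± 0.16 at 20 h (adjusted p = 0.00536), a pass lost without any 1 of its arrays (0.83 to 0.85). With the scanner's ratios the value with CoCl2 at 20 h was 2.17. In wild type with CoCl2 at 6 h the arrays stood at -1.78, -0.81 and -0.51. Their mean of -1.03 ± 0.25 did not pass (adjusted p = 0.0265), and replicate 1 was far below the other 2, as it was for *lipl-1*. The remaining LIPL genes moved less. *lipl-3* passed once, higher in *pqm-1(ok485)* with CoCl2 at 20 h (0.35 ± 0.061, arrays at 0.39, 0.26 and 0.40), a pass lost with the scanner's ratios (0.55) and after median centering (0.21). *lipl-7* stood at 0.38 in *pqm-1(ok485)* and 0.28 in wild type with CoCl2 at 20 h, and at -0.22 between the strains, but under centering on the median the wild-type value was -0.044 and the strain value 0.174. The wild-type pass was lost without replicate 2 (0.22) or 3 (0.29), and the strain pass without any 1 array (-0.25 to -0.17).

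**Figure D2:**
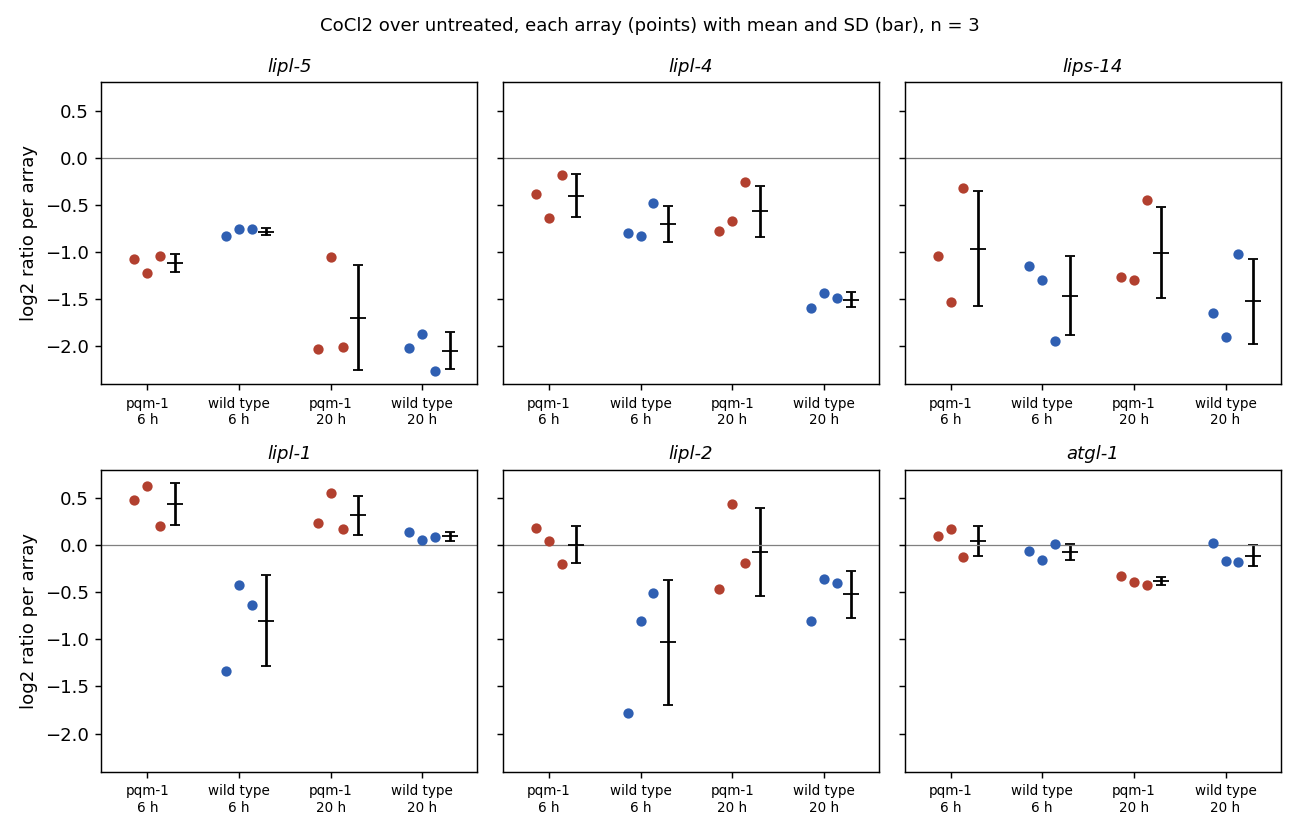
Log2 ratio of CoCl2 over untreated on each array (points, 3 per group), with the mean and SD beside them, for 6 genes by strain and time (x axis). *lipl-5* and *lips-14* lie below 0 on all 12 arrays, *lipl-4* separates the strains at 20 h, and *lipl-1* lies above 0 in *pqm-1(ok485)* (0.20 to 0.63) and below 0 in wild type (-1.34 to -0.42) at 6 h.

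The cytosolic lipase genes changed by less than 0.4 in every comparison, though the 4 values that passed were between -0.79 and -0.55 with the scanner's ratios. *atgl-1* with CoCl2 stood at 0.10, 0.17 and -0.13 in *pqm-1(ok485)* and at -0.06, -0.16 and 0.01 in wild type at 6 h, and at -0.33, -0.39 and -0.42 in *pqm-1(ok485)* and 0.02, -0.17 and -0.18 in wild type at 20 h. The arrays of the mutant at 20 h were thus all below those of wild type. The mean at 20 h was -0.38 ± 0.069 in *pqm-1(ok485)* (1.3-fold lower, adjusted p = 0.000764) and -0.11 ± 0.069 in wild type (95% interval -0.26 to 0.04). The difference between these responses did not pass (-0.27, 95% interval -0.48 to -0.05, adjusted p = 0.0922). Between the strains with CoCl2 at 20 h, *atgl-1* stood at -0.48, -0.37 and -0.32 (mean -0.39 ± 0.069, adjusted p = 0.000638). All 3 of its probes pointed that way, at -0.64, -0.34 and -0.19. After centering on the median, the strain value was -0.05 and the value in the mutant -0.54, and neither passed. *hosl-1* fell in *pqm-1(ok485)* with CoCl2 at 20 h (-0.37 ± 0.092, adjusted p = 0.00592) and was lower in the mutant with CoCl2 at 6 h (-0.31 ± 0.074, adjusted p = 0.00752), and both passes were lost without any 1 array (-0.424 to -0.298 and -0.321 to -0.295).

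Both fasting-induced lipase genes rose with CoCl2 in the mutant at 20 h. After 20 h, *fil-2* stood at 1.20, 1.38 and 0.51 in *pqm-1(ok485)* and at 0.51, 0.87 and 0.18 in wild type, with means of 1.03 ± 0.15 (2.04-fold, adjusted p = 0.000111) and 0.52 ± 0.15 (adjusted p = 0.0212). The strains overlapped, and replicate 3 was lowest in each. At 6 h *fil-2* rose in *pqm-1(ok485)* by 0.67 ± 0.13 (0.76, 1.02 and 0.22), a pass lost without replicate 1 (0.62) or 2 (0.49) and with no offset (1.13), and stood at 0.23 in wild type (adjusted p = 0.583). *fil-1* stood at 0.67, 0.80 and 0.25 in *pqm-1(ok485)* (mean 0.57 ± 0.1, adjusted p = 0.000566) and at 0.02, 0.35 and 0.14 in wild type at 20 h (mean 0.17, adjusted p = 0.259). Between the strains with CoCl2 at 20 h, *fil-1* stood at 1.22, 0.87 and 1.00 (mean 1.03 ± 0.1, 2.05-fold, adjusted p = 8.85e-06) and *fil-2* at 0.92, 0.75 and 0.87 (mean 0.85 ± 0.15, adjusted p = 0.000502). Without CoCl2 the strain ratios of both were near 0, between -0.20 and 0.24 on the arrays of both times, and below every array with CoCl2 at 20 h. With the scanner's ratios, *fil-1* stood at 1.64 in the mutant and 2.13 between the strains with CoCl2 at 20 h, and *fil-2* at 2.56 in the mutant, while the strain ratio of *fil-2* no longer passed (1.25, and 1.06 with no offset). At 6 h *fil-2* was higher in the mutant with CoCl2 (0.59, 1.02 and 0.58, mean 0.73 ± 0.13), a pass lost without replicate 2 (0.59). The Cy3 source name of replicate 2 of the mutant's response at 6 h names wild-type worms with CoCl2, against its title and strain field, and without that array *fil-2*, *lips-14* and *lips-5* no longer passed in that response.

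In the *lips* family, *lips-14* fell with CoCl2 on every array. The arrays stood at -1.04, -1.53 and -0.32 in *pqm-1(ok485)* and at -1.15, -1.30 and -1.94 in wild type at 6 h, and at -1.27, -1.30 and -0.45 in *pqm-1(ok485)* and -1.65, -1.90 and -1.02 in wild type at 20 h. Replicate 3 of the mutant was the least low at each time. The means at 6 h were -0.97 ± 0.19 in *pqm-1(ok485)* (adjusted p = 0.00324) and -1.46 ± 0.19 in wild type (2.76-fold lower, adjusted p = 3e-04), where it had rank 24 from the lowest of 22066 genes. The pass in the mutant was lost without replicate 1 (-0.93) or 2 (-0.68). At 20 h the means were -1.01 ± 0.17 in *pqm-1(ok485)* (2.01-fold lower, adjusted p = 0.000499) and -1.52 ± 0.17 in wild type (2.87-fold lower, adjusted p = 4.89e-05). With the scanner's ratios the 4 values were larger, at -3.43 in the mutant and -2.70 in wild type at 6 h and -3.52 and -4.31 at 20 h. The responses of the strains to CoCl2 differed by 0.51 at 20 h (95% interval -0.03 to 1.05, adjusted p = 0.204). A single probe stood for *lips-14*, annotated as a pseudogene.

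*lips-17* was higher in the mutant with and without CoCl2. The strain ratio stood at 1.69, 1.51 and 1.17 with CoCl2 and at 1.17, 0.88 and 1.27 without it at 6 h, and at 1.53, 1.17 and 0.88 with CoCl2 and 0.69, 0.53 and 0.48 without it at 20 h. All 12 arrays were above 0. The means at 6 h were 1.46 ± 0.1 with CoCl2 (2.74-fold, adjusted p = 6.25e-07) and 1.11 ± 0.1 without (2.15-fold, adjusted p = 6.57e-06). At 20 h they were 1.19 ± 0.14 with CoCl2 (2.29-fold, adjusted p = 2.22e-05) and 0.57 ± 0.14 without, which did not pass (adjusted p = 0.0227). With CoCl2, *lips-17* rose in *pqm-1(ok485)* at 20 h (1.10, 1.11 and 0.76, mean 0.99 ± 0.14) and stood at 0.11, 0.72 and 0.08 in wild type. The difference between these responses, 0.69 ± 0.19, did not pass (adjusted p = 0.0286). In the mutant, the response was larger at 20 h than at 6 h by 0.80 (adjusted p = 0.00184), a pass lost without replicate 3 at 6 h (0.715) or replicate 1 (0.75) or 2 (0.74) at 20 h, with the scanner's ratios (0.72) and after median centering (0.84). The untreated strain ratio at 6 h was also lost after centering (1.08).

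*lips-9* and *lips-7* rose with CoCl2 in *pqm-1(ok485)* at 20 h. *lips-9* stood at 0.92, 1.16 and 0.79 in *pqm-1(ok485)* and at -0.38, -0.15 and -0.03 in wild type. *lips-7* stood at 0.76, 0.65 and 0.53 in *pqm-1(ok485)* and at -0.09, -0.03 and -0.06 in wild type. For both the strains were apart, and neither wild-type mean passed. In wild type with CoCl2 each gene was above background on 1 of 3 arrays of that response. The means were 0.96 ± 0.12 (1.94-fold, adjusted p = 4.34e-05) and -0.19 ± 0.12 (adjusted p = 0.302) for *lips-9*, and 0.65 ± 0.1 (1.57-fold, adjusted p = 0.000273) and -0.06 ± 0.1 (adjusted p = 0.731) for *lips-7*. At 6 h neither passed, and *lips-9* was below 0 on the 3 mutant arrays (-0.43, -0.57 and -0.03) and the 3 wild-type arrays (-0.56, -0.23 and -0.02). The mutant's response was larger at 20 h than at 6 h by 1.30 ± 0.17 for *lips-9* (adjusted p = 6.55e-06) and by 0.73 for *lips-7* (adjusted p = 0.000181). Between the strains with CoCl2 at 20 h, *lips-9* stood at 1.74, 1.00 and 1.16 (mean 1.30 ± 0.12, adjusted p = 6.58e-06) and *lips-7* at 1.53, 0.81 and 1.16 (mean 1.17 ± 0.1, adjusted p = 5.1e-06). Without CoCl2 their strain ratios at 20 h were 0.12 and 0.11, and neither passed.

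*lips-6* was lower in the mutant than in wild type without CoCl2, at -1.0, -1.46 and -0.88 at 6 h (mean -1.11 ± 0.12, adjusted p = 2.57e-05) and -0.63, -0.91 and -0.78 at 20 h (mean -0.78 ± 0.15, adjusted p = 0.00619). In the mutant at 20 h it was not well above background on any array, which makes it at least 1.71-fold lower there, and the pass was lost without any 1 array (-0.85 to -0.71). At 6 h it had rank 66 from the lowest of 22066 genes. With CoCl2 the strain ratio was -0.90, -0.86 and -0.51 at 6 h (mean -0.76 ± 0.12) and 0.02, 0.10 and 0.28 at 20 h. In wild type *lips-6* fell with CoCl2 at 20 h (-0.66, -1.43 and -0.37, mean -0.82 ± 0.15, adjusted p = 0.00146), again to signals not well above background and at least 1.76-fold. Without replicate 2 this value was -0.515 and still passed. After centering on the median both 20 h passes were lost (-0.72 in wild type with CoCl2 and -0.81 between the untreated strains). With the scanner's ratios the 4 values that passed were -3.66 to -2.75. In *pqm-1(ok485)* with CoCl2 at 20 h it stood at 0.02, -0.15 and 0.02. It was above background there on 1 of 3 arrays with CoCl2 and on 1 of 3 without it, so a fall could hardly be seen. Where both strains had CoCl2 at 20 h, *lips-6* was above background on 2 of 3 arrays in *pqm-1(ok485)* and on none in wild type.

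The other *lips* genes that passed changed by less than 0.6, though with the scanner's ratios *lips-11* stood at -1.12 in wild type with CoCl2 at 20 h and at 1.37 between the strains with CoCl2 at 6 h. *lips-11*, *lips-12* and *lips-13* are neighbors on chromosome II with no protein-coding gene between them. *lips-12* fell with CoCl2 at 20 h by 0.30 in *pqm-1(ok485)* (lost without replicate 1, at -0.28, or 2, at -0.23) and by 0.51 in wild type, and *lips-11* fell by 0.26 in *pqm-1(ok485)* (lost without replicate 1, at -0.245, or 2, at -0.22) and by 0.28 in wild type (lost without any 1 array, -0.335 to -0.243). *lips-13* stood at 0.09 in *pqm-1(ok485)* and at 0.03 in wild type. In that wild-type response it was above background on 1 of 3 arrays with CoCl2 and on 1 of 3 without it, so a fall could hardly be seen. Whether the responses of these neighbors differ was not tested. Between the strains with CoCl2, *lips-11* was higher in the mutant at 6 h (0.30) and at 20 h (0.28), with each pass lost without any 1 array (0.29 to 0.31 and 0.26 to 0.32), and *lips-13* at 20 h (0.44). At 6 h *lips-11* was above background in wild type on 1 of 3 of these arrays. The pass of *lips-13* was lost after centering on the median (0.09), with no offset (0.79) and with the scanner's ratios (1.23). *lips-5* rose with CoCl2 at 20 h by 0.48 in *pqm-1(ok485)* and by 0.44 in wild type (lost without replicate 1, at 0.415, or 2, at 0.37), and at 6 h by 0.30 in *pqm-1(ok485)* (lost without replicate 1, at 0.30, or 2, at 0.23). Its strain ratio with CoCl2 at 6 h was 0.26, lost without any 1 array (0.23 to 0.30). The 6 genes that never passed stood between -0.35 and 0.49 over the 8 comparisons.

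**Figure D3:**
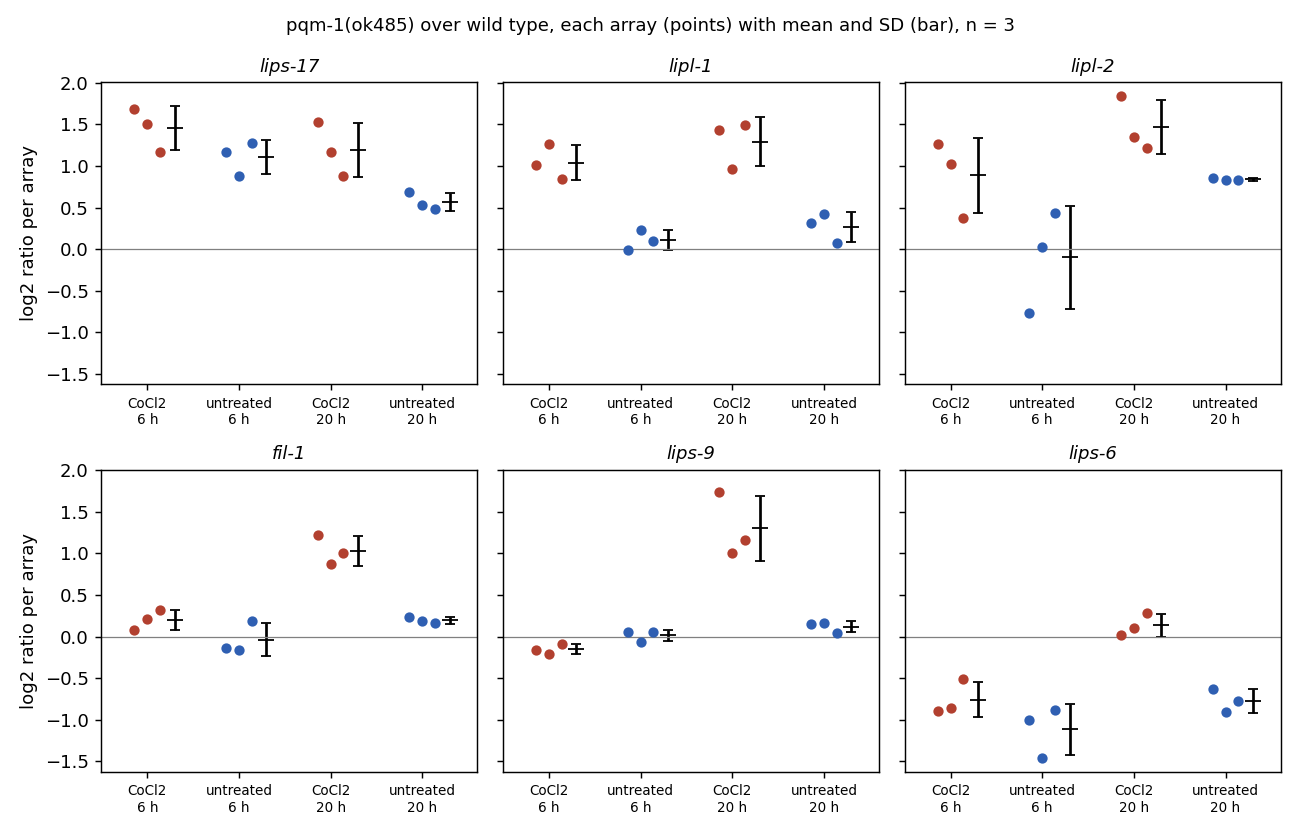
Log2 ratio of *pqm-1(ok485)* over wild type on each array (points, 3 per group), with the mean and SD beside them, for 6 genes with CoCl2 and untreated at 6 h and 20 h (x axis). *lips-17* is above 0 on all 12 arrays, *lipl-1*, *fil-1* and *lips-9* have their highest means with CoCl2 at 20 h (1.29, 1.03 and 1.30), and *lips-6* is below 0 except with CoCl2 at 20 h.

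Probes of a gene did not always move together. For *lips-3*, whose mean over 6 probes never passed, 1 probe (A_12_P112253) stood at 1.56 between the strains with CoCl2 at 20 h (1.17 to 2.13 on the arrays) while the other 5 stood between -0.12 and -0.03. The same probe stood at 0.97 with CoCl2 in *pqm-1(ok485)* and at -0.45 in wild type at 20 h, where the other 5 stood between -0.12 and -0.03 and between -0.19 and 0.01. This probe was singled out after its values were seen. For *lips-7*, 2 probes entered the mean, at 1.51 and 0.83 between the strains, and another, left out by the filter on dim probes, stood at -0.01. With that probe included, the mean was 0.78, and the strain difference in the response at 20 h was 0.45 and no longer passed. For *lips-5*, 2 probes rose with CoCl2 at 20 h (0.89 and 0.52 in *pqm-1(ok485)*, 0.75 and 0.54 in wild type) and the other stood at 0.04 and 0.03.

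**Figure D4:**
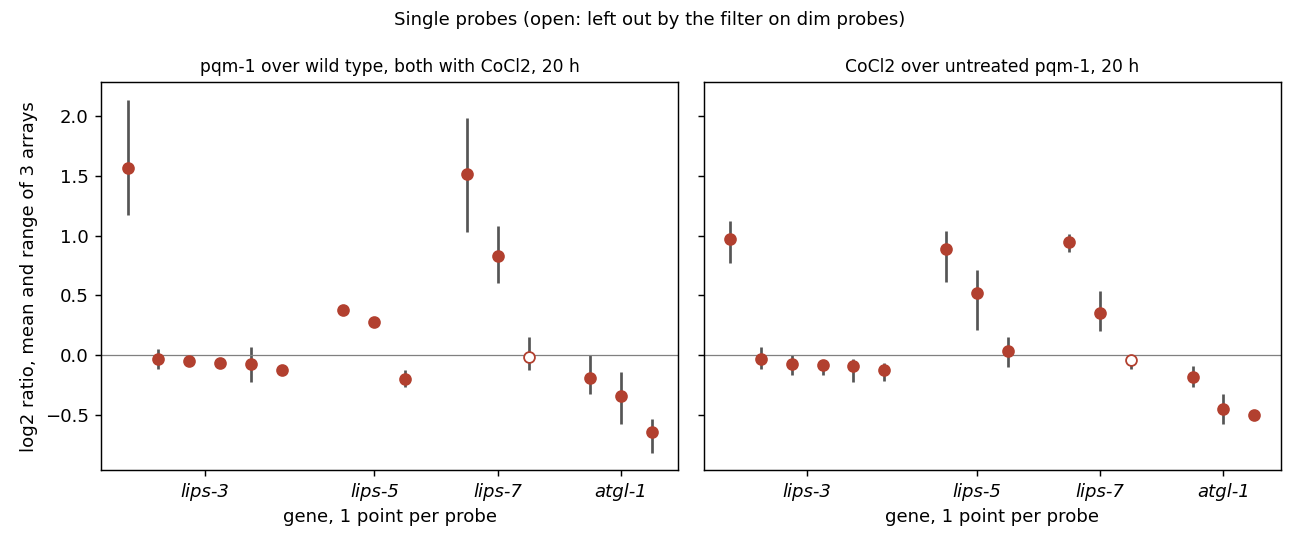
Log2 ratio of single probes (points, mean of 3 arrays; lines, range) of 4 genes at 20 h, sorted by value within each panel, for *pqm-1(ok485)* over wild type with CoCl2 and for CoCl2 over untreated in *pqm-1(ok485)*. One *lips-3* probe stands at 1.56 and 0.97 while the other 5 lie near 0, and the open circle is a *lips-7* probe that the filter on dim probes left out.

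The strain difference in the response to CoCl2 could be taken in 2 ways from the same 12 arrays, as the CoCl2 response of *pqm-1(ok485)* minus that of wild type, or as the strain ratio with CoCl2 minus that without it. The study used the second pair at 6 h and the first at 20 h. At 6 h, 0 of 25 genes passed in limma, against 3.03% of all genes (1.69% higher and 1.33% lower), while 7 had an unadjusted p below 0.05 and SAM, the method of the study, found *fil-2* (0.75) and *lipl-1* (0.93). At 20 h, 3 of 25 passed, against 8.87% of all genes, and all were higher in the mutant (8.14% of all genes, with 0.737% lower). These were *lips-9* (1.14 ± 0.17, adjusted p = 0.00115), *lipl-4* (0.94 ± 0.16) and *lips-7* (0.71 ± 0.15, adjusted p = 0.00623; lost without mutant replicate 1 or 2 or any wild-type array, 0.65 to 0.72). After centering on the median none of the 3 passed (1.16, 1.05 and 0.67), and none did with the slide as a fixed block (1.175, 0.78 and 0.68). *lips-7* was also lost with no filter on dim probes (0.45) and with no offset (1.17), and *lipl-4* with only the arrays compared (0.94). SAM found none at 20 h. The other pair gave 1 gene at 6 h, *lipl-1* at 1.24 ± 0.2 (adjusted p = 0.0052), against 1.69% of all genes (0.757% higher and 0.934% lower), and 6 at 20 h, against 14.2% of all genes (11.2% higher and 3.07% lower). These were *lips-9* (1.18), *lips-7* (1.06), *lipl-1* (1.02), *lips-6* (0.91), *lipl-4* (0.91) and *fil-1* (0.84). For *lipl-1* at 20 h the first pair gave 0.22, and the 1.02 rests on an untreated strain ratio that is a bound. Thus *lips-9*, *lips-7* and *lipl-4* passed by both pairs at 20 h. At 20 h, 4 of 7 intestine markers (median 0.54) and 5 of 7 hypodermis markers (median 1.36) passed in the same direction, and their part in these differences was not tested.

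**Figure D5:**
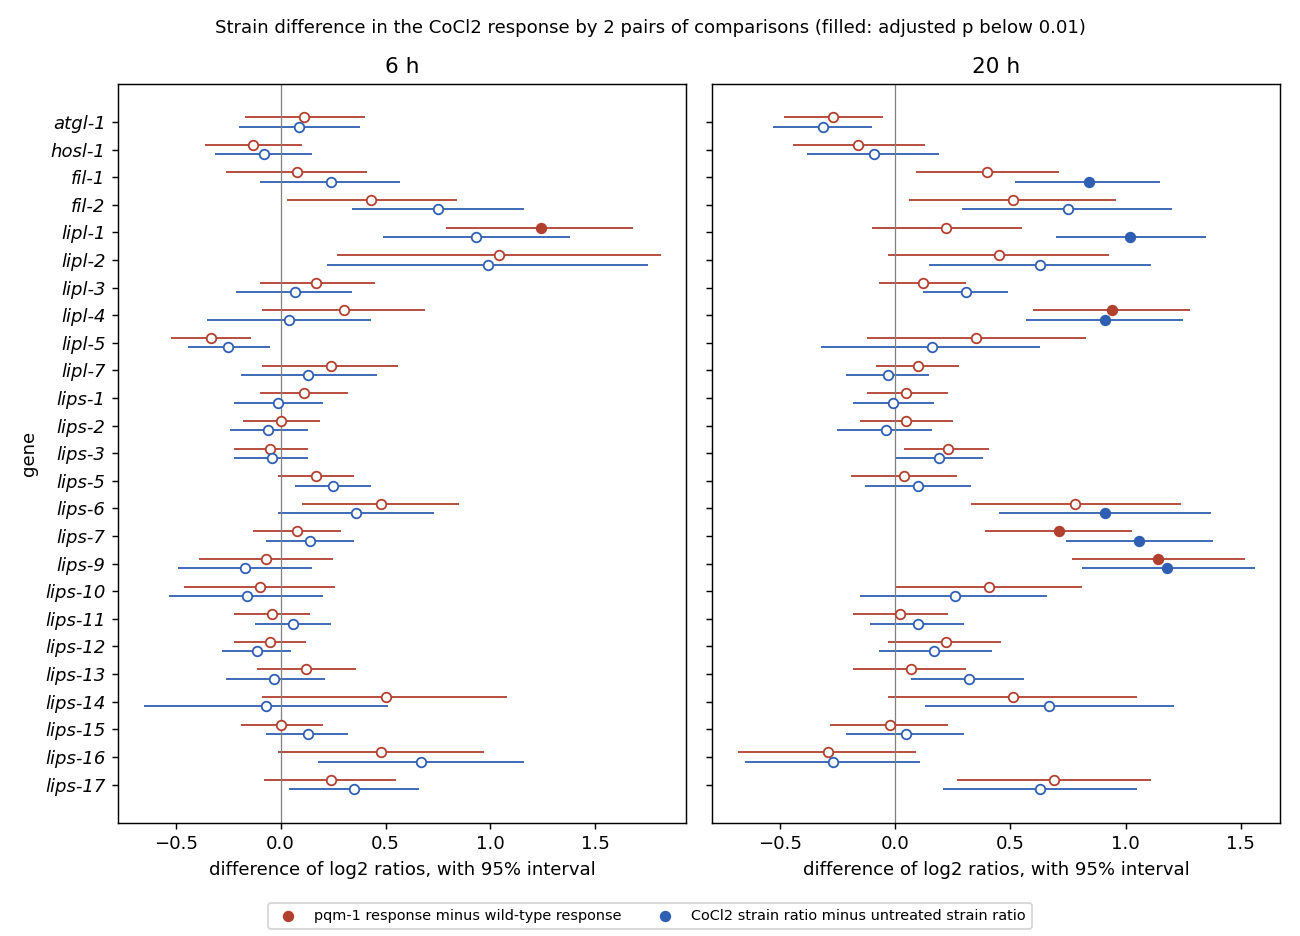
Strain difference in the CoCl2 response (x axis, difference of log2 ratios, with the 95% interval of the fit) for the 25 genes at 6 h and 20 h, taken as mutant response minus wild-type response (red) or as strain ratio with CoCl2 minus without (blue); filled points have an adjusted p below 0.01. Both colors are filled at 20 h for *lips-9*, *lips-7* and *lipl-4*, and for *lipl-1* at 20 h the 2 values lie apart (0.22 and 1.02).

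Between 6 h and 20 h, the wild-type response to CoCl2 changed for 4 of 25 genes, against 6.07% of all genes (3.35% higher and 2.72% lower). Besides *lipl-5*, *lipl-4* fell further by 0.80 (adjusted p = 0.00439) and *lips-12* by 0.39 (adjusted p = 0.00976), and *lipl-1* was higher at 20 h by 0.89 (adjusted p = 0.00315). The last 3 were each lost when single arrays were left out: *lipl-4* without replicate 1 or 3 at 6 h or 1 or 2 at 20 h (-0.85 to -0.69), *lips-12* without any array at 6 h or replicate 1 or 2 at 20 h (-0.39 to -0.29), and *lipl-1* without replicate 1 at 6 h (0.62) or replicate 1 (0.87) or 2 (0.91) at 20 h. In wild type at 20 h, *lipl-1* was above background on 0 of 3 arrays with CoCl2 and on 1 of 3 without it. A fall could hardly be seen there, so its change between times rests on dim signals. In the mutant, 3 of 25 changed, against 16.9% of all genes (14.1% higher and 2.82% lower), namely *lips-9*, *lips-17* and *lips-7*, all higher at 20 h. For *lipl-5* the mutant's ratio changed by -0.58, which did not pass.

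Other genes of fat storage and breakdown were read from lists by function. Of 14 transcription factors linked to fasting and fat, the values with CoCl2 at 6 h lay between -0.16 and 0.44 in *pqm-1(ok485)* (median 0.05) and between -0.12 and 0.34 in wild type (median 0), with no pass. At 20 h, 6 rose and 1 fell in *pqm-1(ok485)*, where 22.8% of all genes rose and 12.4% fell, and 4 rose in wild type, where 8.98% of all genes rose. Among them *mxl-3*, the repressor of lysosomal lipase genes, rose by 1.13 in *pqm-1(ok485)* and by 0.99 in wild type, and *nhr-80*, a nuclear receptor for fatty acid desaturase genes, by 0.86 and 0.69. *daf-12*, a nuclear receptor for steroid hormones, was lower in the mutant in all 4 strain comparisons, at -0.94 with CoCl2 and -0.78 without it at 6 h, and at -1.05 with CoCl2 and -0.58 without it at 20 h. *hlh-30* rose by 0.27 in *pqm-1(ok485)* at 20 h. Of 14 energy and stress signalling genes, the values with CoCl2 at 6 h lay between -0.19 and 0.36 in *pqm-1(ok485)* and between -0.19 and 0.15 in wild type, with no pass, and 3 were higher and 2 lower in the mutant with CoCl2 at 20 h, against 23.7% and 13.6% of all genes. These included *hsp-4*, the BiP chaperone gene that IRE-1 signalling induces (0.95), *aakb-1*, for an AMP kinase subunit (0.58), and *daf-2*, the insulin receptor gene (-0.58).

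Of 11 lipid droplet and storage genes tested, 1 rose and 4 fell with CoCl2 at 6 h in *pqm-1(ok485)*, against 6.03% and 4.83% of all genes, and 1 rose and 3 fell in wild type, against 2.57% and 1.68%. *dgat-2*, for the last step of triglyceride synthesis, rose by 0.79 in *pqm-1(ok485)* and by 1.60 in wild type, while *lbp-8*, the lysosomal lipid chaperone gene downstream of *lipl-4*, fell by 0.80 and by 1.11. At 20 h *lbp-8* fell by 0.94 in *pqm-1(ok485)* and by 1.13 in wild type, so it fell in all 4 CoCl2 responses, as *lipl-5* did. With CoCl2 at 20 h, *dgat-2* (1.93), *dhs-3* (0.74), *abhd-5.1* (0.66), a relative of the ATGL activator CGI-58, and *acs-22* (0.65) were higher in the mutant than in wild type, and *lpin-1* lower. Of 10 other lysosome genes, 4 rose and 1 fell with CoCl2 at 20 h in *pqm-1(ok485)*, against 22.8% and 12.4% of all genes, and 2 rose and 1 fell in wild type, against 8.98% and 6.93%. The gene that fell was *cpl-1*, for the protease cathepsin L (-1.51 in *pqm-1(ok485)* and -1.33 in wild type), and *ppt-1* (0.49 and 0.65) and *ncr-1* (0.52 and 0.43) rose in both. The median over these 10 genes was 0.21 in *pqm-1(ok485)* and 0.15 in wild type, where the 6 LIPL genes tested had medians of 0.02 and -0.26.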

How the data were processed

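Each array held 2 labeled RNAs. The intensity values used, medians over the pixels of a spot and over the background around it, were deposited by the authors as the scanner's software wrote them. The log10 ratios beside them were computed by this software from its own corrected signals, per the file headers, and the log2 ratios of the series table were deposited by the authors from the same ratio, with unstated centering. These signals were corrected with normexp (offset 50) and normalized by loess within arrays. Control and outlier spots were left out, and spots of a probe, then probes of a gene, were averaged. The design annotation matched 34515 of 43603 probes to genes of the RefSeq table (WBcel235), which is not the build of the array design, so no coordinates are given. Unmatched probes were kept under their design names, averaged by name and tested with the genes. Probes had to stand above background, in either channel, on all arrays of 1 or more comparisons at a time, and genes needed values on 2 or more arrays per comparison.

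The 12 arrays of a time were fitted with limma 3.58.1 in R 4.3.3, with 1 mean per comparison and 8 residual degrees of freedom, and all 24 for differences between times. The fit was tested on simulated data. Precision is limited by having 3 arrays in a comparison. The study's methods call the arrays of the strain comparisons biological replicates, and neither they nor the labels say that the cultures were separate, so p-values measure the spread between these arrays, which may be technical. Signs came from the strain and treatment fields. By these fields, replicate 3 of a comparison had the dyes swapped against its other arrays, except that replicate 2 had in both CoCl2 responses at 20 h. A dye effect thus does not cancel in a mean, and a dye term was used only as an alternative. Source names give the other sign on 11 of 24 arrays, and the series table has the sign of the fields on 24. Every CoCl2 response shares its RNA kinds with 2 strain comparisons.

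Members and lists were chosen with earlier results of these data known. All members except *lips* genes that never passed were named, with array values where a pass reached 1 in size and for *atgl-1* and *lipl-4*; other values were added where they bear on these. At most 4 genes per list and comparison were named, by adjusted p; *hlh-30*, *lbp-8*, *ncr-1* and *lpin-1* in the mutant at 20 h fall outside that and were chosen after their values were seen. A planned count of promoter motifs was not run. The alternatives were SAM, a looser threshold, other background, centering and signals, other filters on dim probes, only the arrays compared, dye, slide and replicate terms, strain differences from the other pair, dyes taken from source names, and leaving out each array.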

Additional observations from a re-analysis of the deposited data

Results flagged for a closer look

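Effects that differed between strains or times by a test of the difference itself were as follows, as differences of log2 ratios from limma. The CoCl2 response of *pqm-1(ok485)* minus that of wild type at 20 h was above 0 for *lips-9* (1.14, and 1.18 by the other pair of comparisons), *lipl-4* (0.94 and 0.91) and *lips-7* (0.71 and 1.06). With no filter on dim probes, the 0.71 of *lips-7* became 0.45 and did not pass. By the other pair alone, with the strain ratio with CoCl2 minus that without it, the difference passed for *lipl-1* (1.02 at 20 h), *lips-6* (0.91 at 20 h) and *fil-1* (0.84 at 20 h). At 6 h, *lipl-1* alone passed as the mutant response minus the wild-type response (1.24). At 20 h, that way gave 0.22 for *lipl-1*. Untreated wild type set against the mutant was above background for *lipl-1* on 0 of 3 arrays at 20 h, so the 1.02 rests on a bound. For *lipl-4* both strains fell at 20 h, the mutant less, and *lips-6* fell in wild type and stood near 0 in the mutant. In these responses *lipl-4* was above background on 1 of 3 arrays in wild type with CoCl2. The mutant's *lips-6* was above background on 1 of 3 arrays with CoCl2 and on 1 of 3 without it, which left little room for a fall. Between 20 h and 6 h, the response in *pqm-1(ok485)* differed for *lips-9* (1.30), *lips-17* (0.80) and *lips-7* (0.73), and in wild type for *lipl-5* (-1.27), *lipl-1* (0.89), *lipl-4* (-0.80) and *lips-12* (-0.39). In wild type at 20 h, *lipl-1* was above background on 0 of 3 arrays with CoCl2 and on 1 of 3 without it, so a fall could hardly be seen there. Groups of 3 arrays were too small to look for single outlying arrays. For *lipl-5* in the mutant's response at 20 h and *lipl-4* between the untreated strains, the odd array was the one with swapped dyes. Dye and replicate cannot be told apart there. For *lips-14* in the mutant's response, the odd array at 6 h (-0.32) was the swapped one. At 20 h the odd array (-0.45) was not the swapped one, but lay on another slide than the other arrays of that response. Dye, slide and replicate cannot be told apart for these arrays.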

How the results depend on the processing

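Of the 68 passes over the 8 comparisons and 4 tests of differences, the dye term kept 68, no filter on dim probes 67, the replicate block 63, the slide as a random block 58, the slide as a fixed block 55, no offset 54, the scanner ratios 53 and the values of the series table also 53, only the arrays compared 44, and centering on the median 30. The strict filter kept 56 of 59. The fixed block for slide was set on the scale of Cy5 over Cy3. It takes out a dye bias of each slide, and not a shift of the ratio of the first RNA over the second. The random block for slide used a correlation within slides of -0.245 at 6 h and 0.19 at 20 h. With the dyes of the source names, 0 of the 25 genes passed in any comparison in limma, and the sign turned for 12 of 12 genes between the strains with CoCl2 at 20 h and 9 of 9 at 6 h, for 4 of 4 in the *pqm-1(ok485)* response at 6 h, for 1 of 8 in the wild-type response at 20 h and for 1 of 4 in its change between times. Under the other alternatives only *lipl-7* turned its direction, at -0.044 in wild type with CoCl2 and 0.174 between the strains with CoCl2 at 20 h, both after centering on the median.

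Counts of members that moved by over 1.5 times were as follows. For the *pqm-1(ok485)* response at 6 h (4), they were 1 with SAM, 7 at 0.05, 2 with no offset, 1 with only its arrays, 8 with the scanner's ratios, 8 with the series table and 8 with the slide as a fixed block. For wild type at 6 h (4), they were 2 with SAM, 1 after centering, 2 with the scanner's ratios and 2 with the series table. For the strains with CoCl2 at 6 h (9), they were 5 with SAM, 4 after centering and 14 with the slide as a random block, and for the untreated strains at 6 h (4) 1 with SAM, 7 at 0.05, 1 after centering, 2 with only those arrays and 8 with the slide as a random block. At 20 h, the *pqm-1(ok485)* response (14) gave 8 after centering and 9 with only its arrays, the wild-type response (8) gave 3 with SAM, 3 after centering, 3 with only its arrays and 3 with the slide as a fixed block, and the untreated strains (3) gave 5 with SAM, 0 after centering, 5 with only those arrays, and 1 and 0 with the slide as a fixed and a random block. The strain difference at 6 h (0) gave 2 with SAM, 2 at 0.05, 1 with no offset, 1 on its own arrays, 1 with the scanner's ratios, 1 with the series table, 1 by the other pair, and 2 and 7 with the slide as a fixed and a random block, and at 20 h (3) 0 with SAM, 5 at 0.05, 0 after centering, 0 with the slide as a fixed block and 6 by the other pair. The change of the wild-type response between the times (4) gave 1 after centering, 2 with only the arrays compared, 7 with the scanner's ratios, 7 with the series table and 2 with the strict filter, and that of the mutant (3) gave 5 at 0.05 and 5 with the slide as a fixed block. The cause of these moves was not tested.

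Leaving out 1 array gave 1 to 5 genes at 6 h and 10 to 13 at 20 h for the *pqm-1(ok485)* response, 2 to 3 and 5 to 7 for wild type, 4 to 6 and 10 to 10 for the strains with CoCl2, 2 to 5 and 0 to 1 for the untreated strains, 0 to 1 and 1 to 5 for the strain difference, and 2 to 3 and 1 to 5 for the change with time in the mutant and in wild type. Same-numbered arrays deviated together in 6 of 18 pairs at 6 h and 7 of 18 at 20 h (r over 0.1). Paired arrays that share an RNA on opposite sides of the ratio would deviate in opposite directions. This count therefore cannot decide whether the numbers pair the samples. With the replicate block, *hosl-1* between the strains with CoCl2 at 6 h (adjusted p = 0.0185), *lips-11* in both responses at 20 h, *lipl-7* between the strains at 20 h and *lips-12* between times no longer passed, and the count of calls was 13 in place of 14 at 20 h in the mutant.

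At 6 h, 3 of the 4 comparisons lay on 1 slide each, as did both strain comparisons at 20 h (2 of 4), so slide and comparison cannot be told apart there. With the scanner's ratios, the median of all genes shifted to -0.173 for the mutant's response at 20 h, -0.103 for the strains with CoCl2 at 20 h, -0.113 for the untreated strains at 6 h and -0.117 for the change of the mutant's response between times. For *lips-6*, *lipl-1*, *lips-13*, *lips-2* and *lips-15*, some group's signal was not above background on any array, so its ratio is a bound. In the wild-type response at 20 h, *fil-1*, *lipl-4*, *lips-7*, *lips-9* and *lips-14* were above background with CoCl2 on 1 of 3 arrays, so their ratios there rest on dim signals.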
